A study of Mus musculus with 2 samples.

Results

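The barcodes described here carried the transcripts of Müller glia together with a large share of Malat1, and numbered 543 of the 22291 barcodes left by a filter that asked for 300 genes or more and a mitochondrial share of UMIs no higher than 20%. A barcode stands for 1 droplet, and a UMI (unique molecular identifier) for 1 captured RNA molecule. Members were chosen from the counts themselves by 4 criteria: the 15 marker genes named below summed to at least 1.5% of UMIs, the barcode held under 3000 UMIs, Malat1 took at least 5% of UMIs, and 7 bipolar cell genes (Pcp2, Gng13, Trpm1, Grm6, Cabp5, Trnp1 and Prkca) summed to fewer than 5 UMIs. The Muller library held 400 members and the MullerControl library 143. These values chose the members, so marker, Malat1, bipolar and depth values are given as a description. They are called nucleus-like Müller barcodes for their Malat1 share alone, and no label says that nuclei were isolated.

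The study took retinas of B6.Cg mice that carry the reporter allele Gt(ROSA)26Sortm9(CAG-tdTomato)Hze, aged 14 weeks and collected 8 weeks after injection of AAV, and sorted tdTomato-positive cells for droplet 3′ RNA sequencing; its title asks whether Müller cells convert to ganglion cells in the living retina. Both groups carried this allele, whose tdTomato is driven by the CAG promoter and needs a recombinase. The labels used here name neither the cargo nor the promoter of the virus, nor the sex or number of mice, so these cannot be given for either group. The library labelled Muller was read as the test group, with about 4.9% positive cells and 60000 sorted, and MullerControl as the control group, with about 10% and 120000; 27000 cells were loaded for each. With 1 library per group there is no replicate, no p-value is given, and every interval (at 95%) covers counting error only.

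Müller glia are the radial support cells of the retina: they recycle glutamate, buffer potassium and water, secrete factors and matrix, and in fish can re-enter a neurogenic program. Malat1 is a long noncoding RNA kept in nuclear speckles, and mitochondrial and ribosomal protein transcripts lie mostly in the cytoplasm, so their shares are commonly read together when the nuclear and cytoplasmic content of a droplet is described. Malat1 ends in a genome-encoded run of A instead of an added poly(A) tail, and an oligo(dT) primer can anneal there. The stretch around that run is shown because Malat1 sets the Malat1 criterion; the capitals mark the run of 12 A, the longest in the transcript, and the tRNA-like end of the primary transcript follows it. It lies at chr19:5795928-5796059 on the minus strand (GRCm38), at positions 6674 to 6685 of the 6983-base transcript Malat1-201 of GENCODE.

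Malat1 3′ end: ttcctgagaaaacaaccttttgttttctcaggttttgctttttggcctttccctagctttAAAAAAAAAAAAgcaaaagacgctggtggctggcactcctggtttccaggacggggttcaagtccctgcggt

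Among the genes furthest above the Malat1-poor Müller barcodes, described later, were the host transcripts of 2 microRNA clusters, Mir99ahg and Mir100hg, and the large gene Trpm3, added after its values were seen, is the host of a microRNA as well. Mature microRNAs with names ending in -5p that were found within them (RefSeq, GRCm38.p6) are shown with the seed, bases 2 to 8, in capitals. The list need not be complete, so a microRNA not shown for a host is not called absent from it. The assay counted the host transcripts and not the microRNAs. Both clusters hold a member with the seed ACCCGUA and a copy of miR-125b.
mmu-miR-99a-5p, in Mir99ahg: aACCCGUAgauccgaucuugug
mmu-miR-100-5p, in Mir100hg: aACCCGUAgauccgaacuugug
mmu-miR-125b-5p, in both: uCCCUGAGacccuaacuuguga
mmu-let-7c-5p, in Mir99ahg: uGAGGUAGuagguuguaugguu
mmu-miR-204-5p, in Trpm3: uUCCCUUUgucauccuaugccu

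The Muller library held 12316 barcodes and 25622379 UMIs, and the MullerControl library 11309 barcodes and 23549118 UMIs. After the filter 11887 and 10404 barcodes were left. The libraries shared 40 barcode sequences, and 1 member of the Muller library was among them, with no sequence a member in both. Members made up 3.37% of passing barcodes in Muller (3.05% to 3.71%, exact binomial) and 1.37% in MullerControl (1.16% to 1.62%). Of the barcodes with the marker share alone, 1116 and 721, members were 35.8% and 19.8%. A share of sorted and loaded cells depends on the sort and on recovery, and the 2 sorts had different positive rates.

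"Shallow" held only against the deepest Müller barcodes. Members had a median of 1851 UMIs in Muller and 1585 in MullerControl, above the medians of all passing barcodes (1518 and 1637) in Muller and close to them in MullerControl. The 234 and 273 barcodes that met every criterion but held 3000 UMIs or more, called deep, had medians of 4225.5 and 5070. The 442 and 279 that met every criterion but had Malat1 under 5%, called Malat1-poor, had medians of 658.5 and 870. The median Malat1 share of members was 22.2% of UMIs in Muller and 13.1% in MullerControl. In deep barcodes it was 14.3% and 13.2%, so members exceeded them in Muller and were level with them in MullerControl. In the Malat1-poor barcodes, which the rule sets apart by this value, it was 1.19% and 0.390%. The median mitochondrial share of members was 1.11% in Muller and 2.90% in MullerControl. It was 0.65% and 0.61% in deep and 3.05% and 5.04% in Malat1-poor barcodes. Against the deep barcodes the mitochondrial share therefore goes against the name nucleus-like. Few barcodes lay near the Malat1 threshold, with 7 and 6 members within 1 point above it and 6 and 6 barcodes within 1 point below it.

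**Figure D1:**
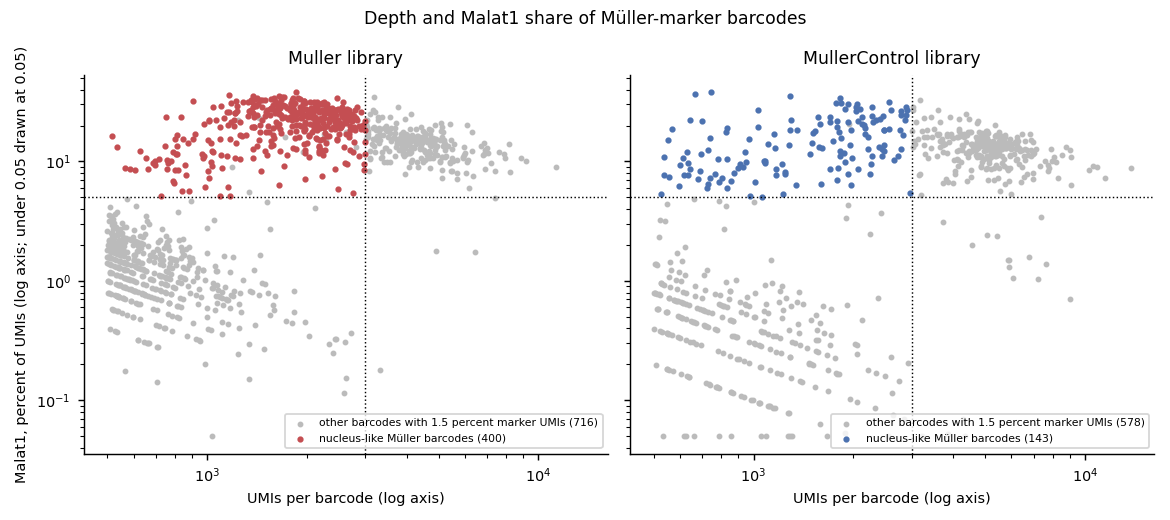
Malat1 share of UMIs against UMIs per barcode, both on log axes, for every passing barcode with at least 1.5% marker UMIs in each library; coloured points are the nucleus-like Müller barcodes, grey points the other barcodes and dotted lines the thresholds of 3000 UMIs and 5%. The 400 and 143 members continue at lower depth from the deep barcodes, with a sparse band between them and the Malat1-poor barcodes.

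Barcodes just inside and just outside the other thresholds were compared without a test. In Muller the 28 members within 300 UMIs under the depth threshold had a median Malat1 share of 19.6% and marker share of 3.35%, and the 36 barcodes within 300 UMIs above it 18.0% and 4.29%. The 61 members within 0.25 points above the marker threshold had 24.9% Malat1 and the 69 barcodes within 0.25 points below it 22.1%. In MullerControl the same marker threshold had 17 members inside, at 13.8% Malat1, and 9 barcodes outside, at 11.5%. The bipolar threshold left out 16 barcodes in Muller and 1 in MullerControl.

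The markers that chose the members were spread over many genes of the list. A median of 11 of the 15 markers had a UMI per member in Muller and 10 in MullerControl, and 90.8% and 80.4% of members held 8 or more, against 0.196% and 0.0953% of Malat1-rich rod barcodes (rod genes at least 3% of UMIs), which were defined as having under 1.5% marker UMIs, so that the contrast is fixed by the definitions. Glul, glutamine synthetase, had a UMI in 99.0% of members in Muller and 99.3% in MullerControl, and Slc1a3, the glial glutamate transporter GLAST, in 84.5% and 79.7%. Thinned to 500 UMIs per barcode, with no barcode left out, Sox9, a glial transcription factor, was detected in 21.3% of members in Muller and 12.6% in MullerControl (45.5% and 37.1% unthinned), against 0.510% and 0.318% of Malat1-rich rod barcodes at the same depth. Rlbp1, which binds retinaldehyde in the visual cycle, was detected in 38.8% and 51.1% of thinned members and in 4.75% and 1.62% of those rods.

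Several markers of other cells were low or absent, but not all. Gfap, an intermediate filament of astrocytes and reactive glia, had 1 UMI in Muller and 0 in MullerControl; a count of 0 in 143 barcodes limits the share of barcodes with a UMI to 2.10%, and not the share of cells that express the gene. The ganglion cell genes Atoh7 and Pou4f2 had 0 UMIs in both libraries, and all 9 ganglion cell markers together had 22 and 3. The endothelial and pericyte list summed to 664 and 305 UMIs, with the defining genes Cldn5 and Cdh5 at 0 in both. The 9 amacrine cell markers summed to 498 and 122 UMIs. All 9 had a UMI in Muller and 3 in MullerControl, where Gad1 and Gad2 were among those at 0. Pax6 was at least 2-fold higher in members than in Malat1-poor barcodes in both libraries. The 6 cone markers summed to 129 and 41 UMIs. Microglial UMIs lay in few barcodes: 2 members in each library held 3 or more of them, 105 of the 120 in Muller and 30 of the 35 in MullerControl. Those 4 barcodes had at most 1 and 2 of the 15 markers, and Apoe, a lipoprotein gene that microglia also express, supplied 100.0% and 93.3% of their marker UMIs, so they go against the Müller label. Without them the counts of genes past the folds given below were 447 and 327 between libraries, 1066 and 592 against Malat1-poor and 244 and 213 against deep barcodes (higher and lower).

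**Figure D2:**
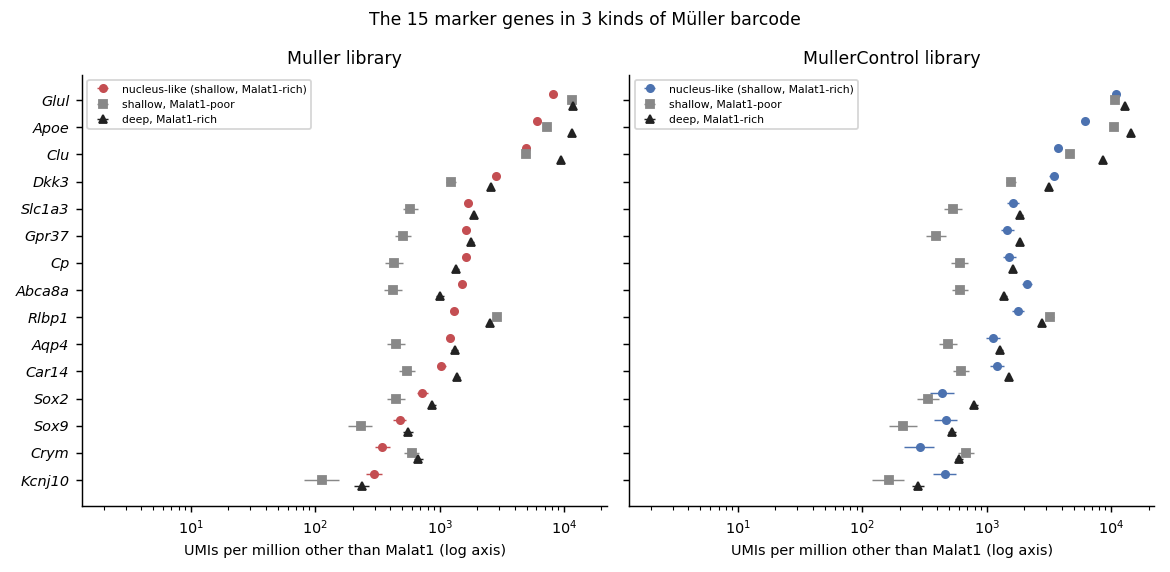
CPM, that is UMIs per 1000000 UMIs other than Malat1 (log axis) of the 15 marker genes in nucleus-like, Malat1-poor and deep Müller barcodes of each library, with Poisson counting intervals. Genes such as Slc1a3 and Gpr37 sit near the deep barcodes, and Rlbp1 and Crym lie below both other kinds in both libraries.

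The 15 markers did not follow a common pattern. All levels below are counts per 1000000 UMIs other than Malat1 (CPM), since Malat1 was part of the rule, summed over 571474 UMIs of members in Muller and 186641 in MullerControl. In sum the markers reached 33827 CPM (33351 to 34307) in Muller and 36734 (35869 to 37614) in MullerControl, against 32141 and 35369 in the Malat1-poor and 49147 and 53490 in the deep barcodes. Against the Malat1-poor barcodes, 8 of the 15 were at least 2-fold higher in both libraries and none lower, where 22.9% of all 4709 genes measured were higher and 12.6% lower: Kcnj10, Cp, Gpr37, Dkk3, Abca8a, Sox9, Slc1a3 and Aqp4. Gpr37, a receptor for prosaposin, stood at 1622 and 1463 CPM in members and 507.0 and 393.4 in Malat1-poor barcodes. Kcnj10, the inward-rectifying potassium channel Kir4.1, stood at 297.5 and 460.8 CPM against 114.3 and 163.6, and Aqp4, the water channel, at 1207 and 1125 against 448.4 and 490.9. Both are membrane proteins of the Müller endfoot.

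Rlbp1 and Crym, a thyroid hormone-binding crystallin, differed in the other direction. Rlbp1 stood at 1312 and 1790 CPM in members, 2875 and 3227 in Malat1-poor and 2553 and 2788 in deep barcodes. Crym stood at 346.5 and 289.3 CPM in members, 597.8 and 682.4 in Malat1-poor and 676.5 and 598.8 in deep barcodes. Members were the lowest of the 3 kinds for both genes in both libraries. Apoe and Clu, a secreted chaperone, were also far from the deep barcodes: Clu stood at 4921 and 3718 CPM in members against 9515 and 8671 in deep ones.

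Within the members, barcodes with more Malat1 held less mitochondrial and ribosomal protein RNA. Across members the Malat1 share correlated with the mitochondrial share at a Spearman coefficient of -0.518 in Muller (400 barcodes) and -0.620 in MullerControl (143), values that share a denominator and come from 1 library each. From Malat1 shares of 5% to 10%, through 10% to 20%, to 20% or more, the median mitochondrial share was 4.32%, 1.69% and 0.681% in Muller. It was 5.79%, 2.92% and 0.851% in MullerControl. In the lowest class it lay above the medians of the Malat1-poor barcodes, 3.05% and 5.04%. Ribosomal protein transcripts summed to 33384, 22702 and 18094 CPM in Muller, and to 23492, 18772 and 13563 in MullerControl.

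Splicing and nuclear protein transcripts went the other way, at 15643, 17933 and 20524 CPM in Muller and 16164, 19149 and 24090 in MullerControl. Epha5, an ephrin receptor with a long gene, stood at 843.8, 1833 and 2719 CPM in Muller and at 929.0, 1809 and 3344 in MullerControl. The marker sum was 33103, 34521 and 33524 CPM in Muller and 34434, 39165 and 35333 in MullerControl. The rule sets a minimum marker share for every member, so this narrow band is not read as a result. The lowest Malat1 class was also the shallowest, with median UMIs of 1010 and 937 against 1938 and 2046 in the highest. It held more rod RNA: 20900 against 12454 CPM in Muller and 14843 against 7609 in MullerControl. The part of depth and rod RNA in these differences was not tested.

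**Figure D3:**
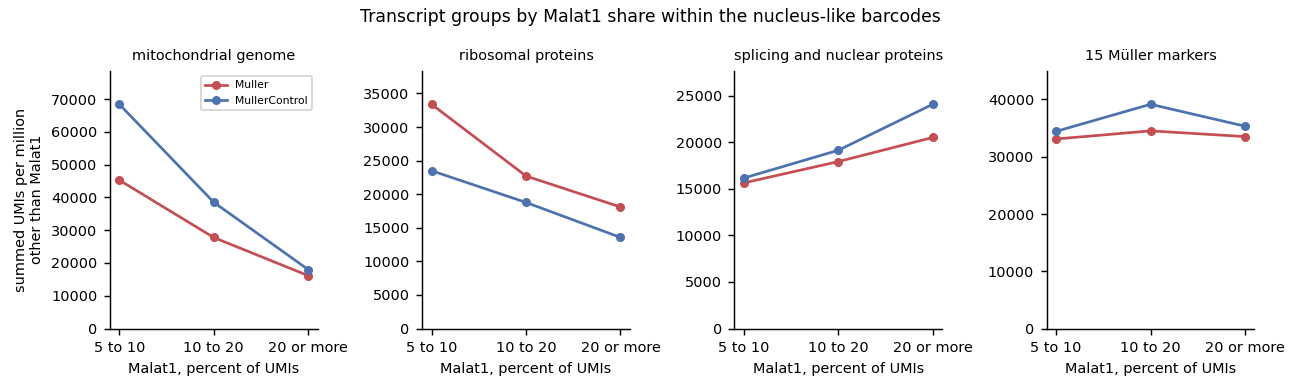
Summed CPM, that is UMIs per 1000000 UMIs other than Malat1 of 4 transcript groups in members with Malat1 shares of 5 to 10, 10 to 20 and 20% or more of UMIs, per library. Mitochondrial and ribosomal protein transcripts are lower, and splicing and nuclear protein transcripts higher, in classes with more Malat1. The marker sum, for which the rule sets a minimum share, lies between 33103 and 39165.

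The comparison with Malat1-poor barcodes shows which transcripts went with the Malat1 criterion in barcodes that met the same marker minimum. The sets also differed in depth and in RNA of other cells, so the comparison is not of Malat1 alone. Median UMIs were 1851 and 1585 in members and 658.5 and 870 in Malat1-poor barcodes. Of 4709 genes with at least 20 UMIs over both sets in each library, 1079 (22.9%) were at least 2-fold higher in members in both libraries and 593 (12.6%) at least 2-fold lower, 1672 (35.5%) in all. With Malat1 counted in the totals the split was 726 higher and 913 lower. Among barcodes under 1500 UMIs it was 332 higher and 374 lower of 2355. The median of all these genes was itself shifted, at 0.21 on the log2 scale in Muller and 0.38 in MullerControl. Genes of the translation and respiration machinery were the most uniform: 78 of 79 ribosomal protein genes were lower, with a median log2 ratio of -1.46 in Muller and -2.20 in MullerControl. Of the nuclear-encoded respiratory chain genes 34 of 36 were lower, with medians of -1.30 and -2.01. Transcripts of the mitochondrial genome were lower by less, with medians of -0.999 and -0.622, and 1 of 12 passed 2-fold in both libraries; in MullerControl the median was 0.03 among barcodes under 1500 UMIs.

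Splicing and nuclear protein genes were mostly higher, 24 of 41, with medians of 1.32 and 1.48 and 1 lower, Hnrnpa1. Srrm2, a scaffold of the nuclear speckles in which Malat1 lies, stood at 1417 and 1275 CPM against 512.8 and 278.5. Of the 9 measured nuclear long noncoding RNAs 6 were higher and 1, AY036118, lower. Meg3 was among the higher, at 491.7 and 546.5 CPM in members and 105.5 and 20.9 in Malat1-poor barcodes. Neat1, the RNA core of paraspeckles, had 30 and 10 UMIs in members and 0 in both Malat1-poor sets.

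Long noncoding RNAs were among the genes furthest above the Malat1-poor barcodes. Mir99ahg (chr16:77236317-77773427, GRCm38), the host of miR-99a, let-7c and a copy of miR-125b shown above, stood at 908.2 CPM in Muller and 1131 in MullerControl, against 26.4 and 17.4 in Malat1-poor barcodes. Its log2 ratios were 4.96 and 5.77. Mir100hg (chr9:41327077-41716994) stood at 365.7 and 326.8 CPM against 8.79 and 10.4. Members exceeded the Malat1-poor barcodes over 20-fold for both host transcripts in both libraries. The Malat1-poor sums held 341250 and 287227 UMIs other than Malat1. These low levels therefore rest on few UMIs, and the size of the folds is uncertain.

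Rmst, a neural long noncoding RNA, stood at 211.7 and 332.2 CPM against 5.86 and 10.4, and Lncpint at 168.0 and 139.3 against 2.93 and 0. Col4a5, a chain of basement membrane collagen, stood at 241.5 and 316.1 CPM against 0 and 6.96. The zinc finger gene Zfp950 stood at 393.7 and 385.8 CPM against 11.7 and 17.4. The Malat1-poor levels of Rmst, Lncpint, Col4a5 and Zfp950 rest on few UMIs as well. Trpm3 (chr19:22139046-22995410), a cation channel gene that hosts miR-204, was chosen after its values were seen. It stood at 2026 and 2390 CPM in members, 202.2 and 309.9 in Malat1-poor and 1214 and 1533 in deep barcodes.

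Several Müller programs were among the higher transcripts. Of the 15 measured glutamate, ion and water transport genes 9 were higher and none lower, with medians of 1.35 and 1.44. Kcnj10, Slc1a3 and Aqp4 among the 9 are rule markers already counted above. Of all 4709 genes measured 22.9% were higher and 12.6% lower. Slc1a2, the glutamate transporter GLT-1, stood at 720.9 and 975.1 CPM against 304.8 and 299.4. Of 15 secreted and matrix genes 10 were higher and 1 lower, with medians of 1.23 and 1.32. Cp and Dkk3 among the 10 are rule markers as well. Col9a1, a collagen chain, stood at 654.4 and 557.2 CPM against 61.5 and 90.5.

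Notch signalling keeps glia in a non-neurogenic state, and 5 of its 10 measured genes were higher and none lower. Their medians were 1.17 and 1.06, and 22.9% of all genes measured were higher and 12.6% lower. Notch1, a receptor of the pathway, stood at 334.2 and 466.1 CPM against 55.7 and 94.0, and its target Hes5 at 369.2 and 316.1 against 76.2 and 142.7. Of 10 immediate early genes, which respond within minutes to stress and tissue handling, 6 were higher and none lower. Jun stood at 631.7 and 396.5 CPM against 155.3 and 104.4. Both lists were higher in Malat1-rich rods too, as given below.

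Some metabolic and cytoplasmic transcripts were among the lower ones. Of 16 glycolysis genes 8 were lower and 3 higher, where 12.6% of all genes measured were lower and 22.9% higher. Of 21 measured endoplasmic reticulum and membrane genes only 2 were lower and 0 higher, with medians of 0.44 in Muller and 0.18 in MullerControl. Gapdh, a glycolytic enzyme, stood at 2082 and 1179 CPM in members against 6089 and 4610 in Malat1-poor barcodes. Dbi, an acyl-CoA-binding protein, stood at 673.7 and 691.2 CPM against 2473 and 3837, Vim, the intermediate filament vimentin, at 722.7 and 514.4 against 1524 and 1414, and Cryab, a small heat shock protein, at 304.5 and 321.5 against 1495 and 1504. Dbi, Vim and Cryab are expressed by Müller glia, so the same cell type's genes lay on both sides.

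Transcripts of other cells were among the largest differences. Ttr, a pigment epithelium transcript, stood at 15.8 and 21.4 CPM in members and 536.3 and 3116 in Malat1-poor barcodes, and Ptgds, prostaglandin D synthase, at 96.2 and 69.7 against 659.3 and 3370. The 6 pigment epithelium markers summed to 3419 CPM in the Malat1-poor barcodes of MullerControl and 685.7 in those of Muller. In members they summed to 525.0 CPM in Muller and 428.6 in MullerControl, with Rpe65, Best1 and Mlana at 0 in both libraries. Of a longer pigment epithelium list 2 genes were measured. Ttr was lower in members and Rrh at least 2-fold higher in both libraries. Rod markers summed to 20141 and 14083 CPM in Malat1-poor barcodes and to 10396 and 7983 in members. The part of these cells' RNA in the differences was not tested.

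**Figure D4:**
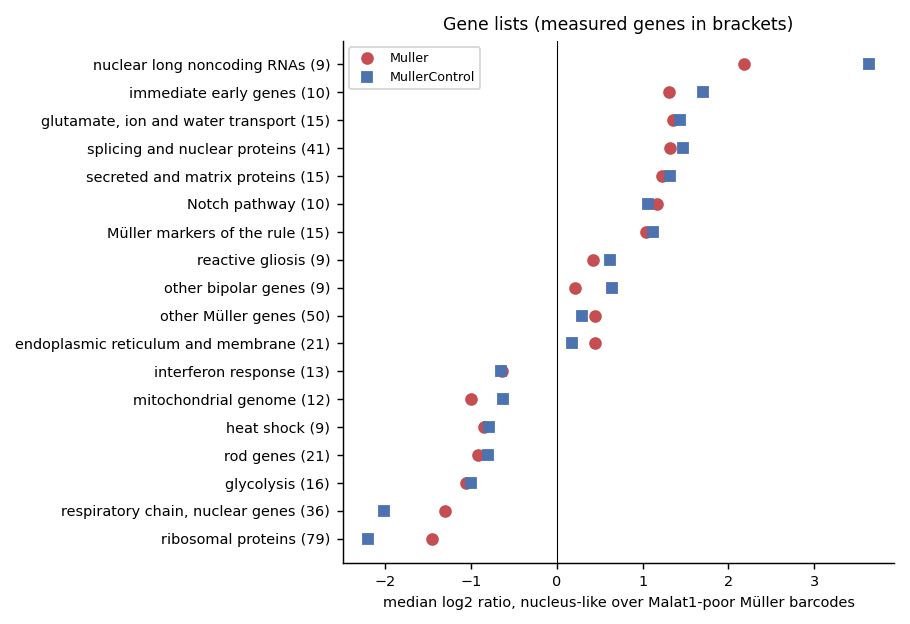
Median log2 ratio of nucleus-like over Malat1-poor Müller barcodes for each gene list with at least 9 measured genes, Muller as circles and MullerControl as squares, with the number of measured genes in brackets. Ribosomal protein genes lie lowest, at -1.46 and -2.20, and splicing and nuclear protein genes at 1.32 and 1.48; the zero line is not the median of all genes, which was 0.21 and 0.38.

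Gene structure, which the rule did not use, separated the directions. Genes higher in members spanned a median of 59770 bases with introns, genes lower in members 6317 and all measured genes 27011 (GENCODE vM21). Of the higher genes 32.7% spanned over 100 kb, against 1.35% of the lower and 16.1% of all. The longest annotated transcript had a median of 5497 bases in the higher, 1249 in the lower and 3587 in all measured genes. Median exon numbers were 13, 4 and 8.

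**Figure D5:**
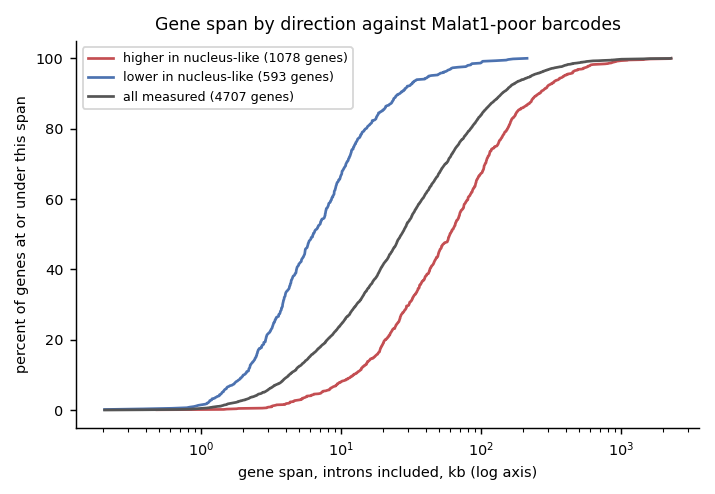
Cumulative percent of genes by gene span in kilobases, introns included (log axis), for genes higher or lower in members than in Malat1-poor barcodes and for all measured genes. The curve of higher genes lies to the right of all genes, with a median of 59770 bases, and that of lower genes to the left, with a median of 6317 bases.

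Rod barcodes, split by the same Malat1 threshold, showed which of these differences were shared with another cell type. Between Malat1-rich and Malat1-poor rods under 3000 UMIs (2547 and 2093 barcodes in Muller, 3147 and 3355 in MullerControl), 2390 of 9937 genes (24.1%) were at least 2-fold higher in both libraries and 74 (0.745%) lower, together 24.8%. Depth ran the other way in rods, with median UMIs of 770 and 985 in Malat1-rich and 1413 and 1666 in Malat1-poor ones. Among 4372 genes measured in both cell types, 895 were higher in members and 749 in Malat1-rich rods, and 465 were higher in both. Those made up 52.0% of the Müller list and 62.1% of the rod list. Of the lower genes, 585 in members and 59 in rods, 39 were shared, 6.67% of the Müller list and 66.1% of the rod list. The short rod list bounds the shared number of lower genes. No gene was called in opposite directions. In rods 19 of 79 ribosomal protein genes passed 2-fold, with medians of -0.90 and -1.59, and 24 of 42 splicing and nuclear protein genes were higher. So were 4 of 10 Notch pathway genes, with medians of 0.97 and 1.24, and 6 of 13 immediate early genes, with medians of 1 and 1.45. Of glutamate, ion and water transport genes 2 of 15 were higher, and of secreted and matrix genes 2 of 15. None of these 4 lists had a lower gene in rods.

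Mir99ahg differed less in rods than in Müller barcodes, with rod log2 ratios of 1.65 and 0.69, and Srrm2 at 1.37 and 1.73 stood near its Müller values. Gapdh was lower in rods as well, at -1.20 and -1.57. Dbi and Vim lay at 0.02 and -0.67, and at 0.03 and -0.17. The difference between the cell types was not tested.

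Against the deep barcodes, which were Malat1-rich too, members differed at few genes: 238 of 8767 (2.71%) were at least 2-fold higher in both libraries and 210 (2.40%) lower, 448 (5.11%) in all, a split that became 151 and 315 with Malat1 in the totals. The median of all measured genes was 0.14 in Muller and 0.17 in MullerControl. No marker passed 2-fold in both libraries, and the marker medians were -0.22 and -0.24. Transcripts of the mitochondrial genome were higher in members, with medians of 0.90 and 1.84, and mt-Co1, a subunit of cytochrome oxidase, stood at 2499 and 3542 CPM against 1183 and 992.9. Ribosomal protein genes had medians of -0.42 and -0.69, none past 2-fold.

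Genes lower than in the deep barcodes were mostly short. Dapl1 stood at 113.7 and 96.4 CPM in members, 574.6 and 495.6 in deep and 662.3 and 1027 in Malat1-poor barcodes. Cox4i2, a respiratory chain subunit isoform, stood at 192.5 and 160.7 CPM against 644.0 and 716.0 in deep barcodes, and Gsta4, a glutathione transferase, at 89.2 and 53.6 against 314.7 and 267.9. Tspo, a protein of the outer mitochondrial membrane, stood at 33.3 and 26.8 CPM against 121.0 and 130.3. These 4 genes were lower in members than in either other kind of Müller barcode in both libraries. Genes lower than in deep barcodes spanned a median of 7984 bases and genes higher 47345.

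Of the genes higher than in deep barcodes, C1qa and C1qb, complement genes of microglia, changed when barcodes with 3 or more microglial UMIs were left out of every set. The log2 ratio of C1qa became 1.33 instead of 3.53 in Muller and 0.40 instead of 1.80 in MullerControl. That of C1qb, with 36 UMIs in members of Muller and 9 in MullerControl, became 1.07 instead of 4.27 in Muller and 2.72 instead of 1.86 in MullerControl. Yeats2, a subunit of a histone acetyltransferase complex, stood at 64.7 and 69.7 CPM against 16.8 and 18.8, and Rai1, a chromatin-associated gene, at 29 and 14 UMIs in members and more than 2-fold higher per UMI in both libraries. Both rested on 13 to 37 UMIs a library. Rod and bipolar RNA were also higher than in deep barcodes. The 11 rod markers summed to 10396 and 7983 CPM in members and to 6517 and 5758 in deep barcodes, and the 7 bipolar markers to 731.4 and 219.7 against 285.6 and 87.7. The part of that RNA in the comparison was not tested.

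Between the libraries, members of Muller and MullerControl differed by at least 1.5-fold at 771 of 3650 genes with 50 UMIs or more (21.1%). Of these, 442 (12.1%) were higher in Muller and 329 (9.01%) lower, or 354 and 467 with Malat1 in the totals. For 458 of them, 218 higher and 240 lower, the counting interval of the log2 ratio left out 0, which covers counting error and not the difference between animals or preparations. The markers had a median log2 ratio of Muller over MullerControl of 0.03, with 2 of 15 past 1.5-fold. The same marker minimum chose the members in both libraries, so this closeness is not read as a result. Sox2, a progenitor and glial transcription factor, was higher in Muller, at 726.2 against 439.3 CPM (log2 ratio 0.71, 0.37 to 1.05), and Kcnj10 lower, at 297.5 against 460.8 (-0.64, -1.01 to -0.27). In the 3 Malat1 classes the ratio was 0.54, 0.51 and 0.53 for Sox2 and -0.63, -0.56 and -0.44 for Kcnj10. Both differences were smaller in the other Müller barcodes. For Sox2 the ratio was 0.14 (0.005 to 0.28) in deep and 0.40 (0.04 to 0.77) in Malat1-poor barcodes. For Kcnj10 it was -0.24 (-0.49 to 0.002) in deep and -0.51 (-1.12 to 0.09) in Malat1-poor barcodes.

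Few other Müller genes passed 1.5-fold. Of 47 measured, 3 were higher in Muller and 2 lower, where 12.1% of all genes measured were higher and 9.01% lower. Rdh10, a retinol dehydrogenase, stood at 154.0 CPM in Muller and 305.4 in MullerControl (log2 ratio -0.997, -1.47 to -0.52), and was lower in Muller in every Malat1 class. Mt1, a metallothionein, stood at 257.2 and 139.3 CPM, and Jun at 631.7 and 396.5. No Notch pathway gene and no secreted or matrix gene passed 1.5-fold, of 9 and 15 measured. Ptbp1, an RNA-binding protein tested elsewhere as a target for glia-to-neuron conversion, had 26 UMIs in Muller and 13 in MullerControl (45.5 and 69.7 CPM), a log2 ratio of -0.67 with an interval of -1.60 to 0.26.

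The mitochondrial and respiratory transcripts differed in opposite directions. Of 11 measured genes of the mitochondrial genome 10 were lower in Muller, with a median of -0.84. Of 33 nuclear-encoded respiratory chain genes 14 were higher and none lower, with a median of 0.49. The mix of Malat1 classes differed beside this: members with 20% Malat1 or more were 58.0% in Muller (232) and 28.0% in MullerControl (40). Among those alone the mitochondrial median was -0.28, and mt-Cytb, cytochrome b, changed from a log2 ratio of -0.60 over all members to 0.26. Cox5b, a nuclear-encoded oxidase subunit, stood at 192.5 and 64.3 CPM, and was higher in Muller in each Malat1 class, at 1.98, 1.24 and 1.61.

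The highest ratios were largely of neuronal genes. Pcp2, a bipolar cell gene, stood at 278.2 CPM in Muller and 69.7 in MullerControl (log2 ratio 1.90, 1.11 to 2.69), and Gng13, a G protein subunit of bipolar cells, at 190.7 and 42.9. Trnp1, Pcp4, Snhg11 and Scg2 followed, at ratios of 2.19, 2.21, 2.47 and 1.93. Snhg11 had 2 UMIs in MullerControl, and its ratio was -0.12 with a marker minimum of 3%. The rule admits up to 4 UMIs of the bipolar genes, and the 3 measured ones were all higher. Pcp2 was higher in Muller in every other kind of barcode too, with ratios of 2.12 in deep, 3.04 in Malat1-poor, 2.77 in Malat1-rich rod and 2.79 in Malat1-poor rod barcodes. After thinning, Pcp2 was detected in 13.0% of members in Muller and 4.20% in MullerControl (31.5% and 8.39% unthinned), against 21.8% and 3.81% of Malat1-rich rods, a cell type that should lack it, with median depths of 770 and 985 UMIs. In Muller the share in members lay below that in rods, and in MullerControl the rods lay within the members' interval of 1.56% to 8.91%. Both kinds of barcode were limited to 4 UMIs of the bipolar genes, and these shares are not read as expression by the members.

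Psmd1, a proteasome subunit, had the highest ratio, at 3.24 (1.21 to 5.28), from 57 UMIs in Muller and 1 in MullerControl. Its ratio was 0.21 in deep, 0.32 in Malat1-poor and -0.08 in Malat1-rich rod barcodes. Gtpbp4, a GTPase of ribosome assembly, stood at 48 UMIs and 4, with 1.68 in members and -0.22 in deep barcodes. At 1 and 4 UMIs in MullerControl these ratios are wide.

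The lowest ratios were those of Twsg1, a modulator of BMP signalling (-1.84), Gfra2, a neurturin receptor (-1.76), mt-Nd4l (-1.70), Dgkz, a diacylglycerol kinase, and Vat1l (both -1.61), Gm26917 (-1.55), mt-Nd3 (-1.48) and Eif2s3y (-1.39). Twsg1 stood at 40.3 CPM in Muller and 144.7 in MullerControl, and at 47.0 and 49.2 in deep barcodes. Gfra2 stood at 47.3 and 160.7, and at 57.1 and 79.5 in deep barcodes. Each rested on 23 to 79 UMIs in Muller.

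Genes of the sex chromosomes also separated the libraries. Xist, the RNA of the inactive X chromosome, stood at 1556 CPM in Muller and 482.2 in MullerControl (log2 ratio 1.68, 1.36 to 1.99), with a UMI in 53.5% and 17.5% of members, and Eif2s3y, a Y-linked gene, at 59.5 and 155.4 CPM. Both libraries held both transcripts. Xist was higher in Muller in deep (1.31) and Malat1-rich rod barcodes (1.29) as well. The mix of sexes and the treatment cannot be told apart in these libraries.

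Of 9 measured interferon response genes 5 were higher in Muller and 2 lower, with a median of 0.65, where 12.1% of all genes measured were higher and 9.01% lower. Of 21 rod genes 5 were higher and none lower, with a median of 0.17. Rom1, a disc membrane protein, stood at 957.2 against 439.3 CPM. The summed rod markers were 10396 CPM (10133 to 10664) in Muller and 7983 (7583 to 8399) in MullerControl, and the part of rod RNA in the differences between libraries was not tested.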

How the data were processed

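The values used are raw UMI counts, deposited as gene-by-barcode matrices; per the file headers, Cell Ranger 4.0.0 made them. Seurat 4.0.5 and the builds mm10 and GRCh38 appear in the submitters' processing notes, with no role stated. The members and gene lists were chosen with earlier results of these data known. Counts were summed over barcodes per library and kind of barcode with Python 3.11.15, numpy 2.4.6 and pandas 2.3.3, and divided by the UMIs other than Malat1. Log2 ratios had 1 count added; Poisson and exact binomial intervals (scipy 1.17.1) were at 95%. Genes counted between libraries had 50 UMIs over both and 1.5-fold; between kinds of barcode, 20 UMIs per library and 2-fold in both. The ratio and the rule were tested on simulated data. Gene structure came from GENCODE vM21 (GRCm38), matching 32158 of 32285 features by ID. Doublets were not removed: Scrublet (scanpy 1.11.5) marked 2 and 0 barcodes on its own setting, so a fixed rate was tried as an alternative. Named genes were all markers and excluded bipolar genes, a fixed list, the highest and lowest ratios of each comparison, and list genes with the largest ratios. A few genes outside it (Trpm3, Epha5, Srrm2, Hnrnpa1) were chosen after their values were seen. 2 libraries allow no test between groups. Free RNA was not modelled. A small number of named genes are not reported here.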

Additional observations from a re-analysis of the deposited data

Results flagged for a closer look

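In MullerControl, 4 of the 905 barcodes left out by the filter met the other criteria of the nucleus-like Müller barcodes, above the limit of 3 that a count of 0 allows. All 4 had over 20% mitochondrial UMIs, with a median Malat1 share of 6.30% and a median of 635.5 UMIs. In Muller, 0 of the 429 left out did.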

How the results depend on the processing

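Each criterion and scaling was changed on its own; the leaving out of microglial barcodes and the Malat1 minimum of 20% were chosen after seeing the data. Under stricter criteria the share of nucleus-like barcodes was, in Muller and MullerControl, 0.883% and 0.538% with a marker minimum of 3%, 3.05% and 0.932% with 10% Malat1, 1.95% and 0.384% with 20% Malat1, 1.03% and 0.644% under 1500 UMIs and 1.25% and 1.02% with no bipolar UMI. With a mitochondrial share of at most 5% of UMIs, which removes more of the other barcodes, it was 4.77% in Muller. Muller was the higher in each.

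Genes higher and lower between libraries numbered 137 and 113 with 3% markers, 79 and 59 under 1500 UMIs, 187 and 155 with no bipolar UMI, 1053 and 1093 at 20 UMIs per gene and 170 and 99 at 100, and 234 were higher with 20% Malat1. Against Malat1-poor barcodes they numbered 412 and 325 with 3% markers and 332 and 374 under 1500 UMIs; 686 were higher with no bipolar UMI, 639 higher with 20% Malat1 and 913 lower with all UMIs in the totals. Against deep barcodes 83 were lower with 3% markers, 552 higher under 1500 UMIs, 376 higher with 20% Malat1 and 151 higher with all UMIs. Fewer barcodes leave fewer genes to count in the stricter settings; for the other changes the cause was not tested.

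Between libraries the mitochondrial median was -0.66 with 10% Malat1, -0.28 with 20% and -0.53 with a mitochondrial share of at most 5%, and the ribosomal protein median 0.32 with 3% markers, 0.41 with 20% Malat1 and 0.0477 with all UMIs. Against Malat1-poor barcodes the mitochondrial median in Muller was -1.17 with 3% markers, and in Muller and MullerControl -1.12 and -1.02 with 10% Malat1, -1.49 and -1.78 with 20%, -0.63 and -0.31 with at most 5% mitochondrial UMIs, -1.34 and -0.88 with all UMIs, and -0.25 and 0.0333 under 1500 UMIs, where it reversed in MullerControl. The ribosomal protein median was -1.19 and -1.97 with 3% markers, -1.52 and -2.28 with 10% Malat1, -1.67 and -2.55 with 20%, -1.23 and -1.94 under 1500 UMIs, -1.79 and -2.46 with all UMIs, -1.53 and -2.38 without the highest Scrublet scores, and in Muller -1.42 with at most 5% mitochondrial UMIs and -1.41 with no bipolar UMI. All UMIs in the totals moved the median of all genes from 0.21 to -0.13 in Muller and from 0.38 to 0.12 in MullerControl.

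Of named ratios, Snhg11 between libraries became -0.12 with 3% markers, mt-Cytb 0.26 with 20% Malat1 and Rgs11, a bipolar cell gene, 0.0551 with no bipolar UMI. C1qb in MullerControl became 1.30 against Malat1-poor barcodes under 1500 UMIs and 1.59 without microglial barcodes, and -0.38 against deep ones with 10% Malat1, where C1qa became -1.02. Without thinning, detection was 45.5% and 37.1% for Sox9 and 31.5% for Pcp2 in Muller. Leaving out the fixed rate of Scrublet scores removed 46 and 22 members. That was 11.5% and 15.4% of members, against 9.51% and 8.32% of all passing barcodes. With no bipolar UMI, the 7 bipolar genes of the rule are 0 by construction and got no value. No paired analysis was possible because each group is 1 library. Depth limits most the MullerControl members, at 224534 UMIs.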
